A study of Mus musculus with 6 samples.

Results

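The Hes and Hey genes encode transcriptional repressors, and their expression was compared between Pax6-deficient and control retinal progenitor cells (RPCs). The 7 genes Hes1, Hes5, Hes6, Hes7, Hey1, Hey2 and Heyl were taken by their symbols in the annotation of the array, which gave 11 probe sets of the 45037 measured and 7 of 18194 named genes. A probe set is a group of short oligonucleotides that together measure 1 transcript or a few. Hes5, Hes6 and Heyl had several probe sets each, and the 4 other genes had 1. The RPCs came from the distal retina of ICR mouse embryos at E12, and GFP-positive cells were sorted into pools, each of 1800000 cells. The mutant pools were Pax6 loxP/loxP;α-Cre and the control pools were Pax6 +/+;α-Cre, with 3 pools and 1 array for each pool. Both groups carry α-Cre, a transgene that drives Cre and GFP in distal RPCs from a regulatory element of Pax6 itself, so that the control cells express Cre as well. The pools are described as biological repeats.

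Hes and Hey proteins are basic helix-loop-helix (bHLH) factors with an Orange domain. Most of them are switched on when a Notch receptor is cleaved by contact with a ligand on the neighbouring cell and its intracellular domain joins the DNA-binding protein Rbpj. Hes1, Hes5 and the Hey factors then recruit Groucho/TLE corepressors and shut off proneural bHLH genes, which keeps a cell in the progenitor state. Proneural factors in turn activate ligand genes such as Dll1, so that a cell entering neurogenesis sustains Notch signalling in the cells around it. Hes6 is the exception in the family, since it antagonises Hes1 and is switched on by proneural factors. In the mouse retina, Hes1 and Hes5 are known for holding progenitors back from early differentiation. Hey2 and Heyl are also well known from blood vessels, and Hes7 from the segmentation clock of the embryonic trunk.

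The family did not move as a whole in mutant RPCs. Hes5 and Hes6 were lower with every probe set, Hes1 and Hey1 differed by less than the spread between arrays, and Hey2 was higher at a low level of signal. A probe set was called when limma gave a difference of at least 1.5-fold, p under 0.05 and, after Benjamini-Hochberg adjustment over all probe sets, p under 0.10. By this rule 4 of the 11 member probe sets were lower and 1 was higher, where 0.984% of all probe sets were called lower and 1.67% were called higher. Taking each gene by its brightest probe set, 2 of 7 members were lower and 1 was higher, against 0.918% and 2.28% of all genes. The median log2 fold change of the 11 member probe sets was -0.02, and that of all probe sets was -0.02. The 3 mutant arrays lay entirely below the 3 control arrays for 5 member probe sets and entirely above them for 3, and the groups overlapped for 3, where 28.2% of all probe sets had groups that did not overlap.

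**Figure D1:**
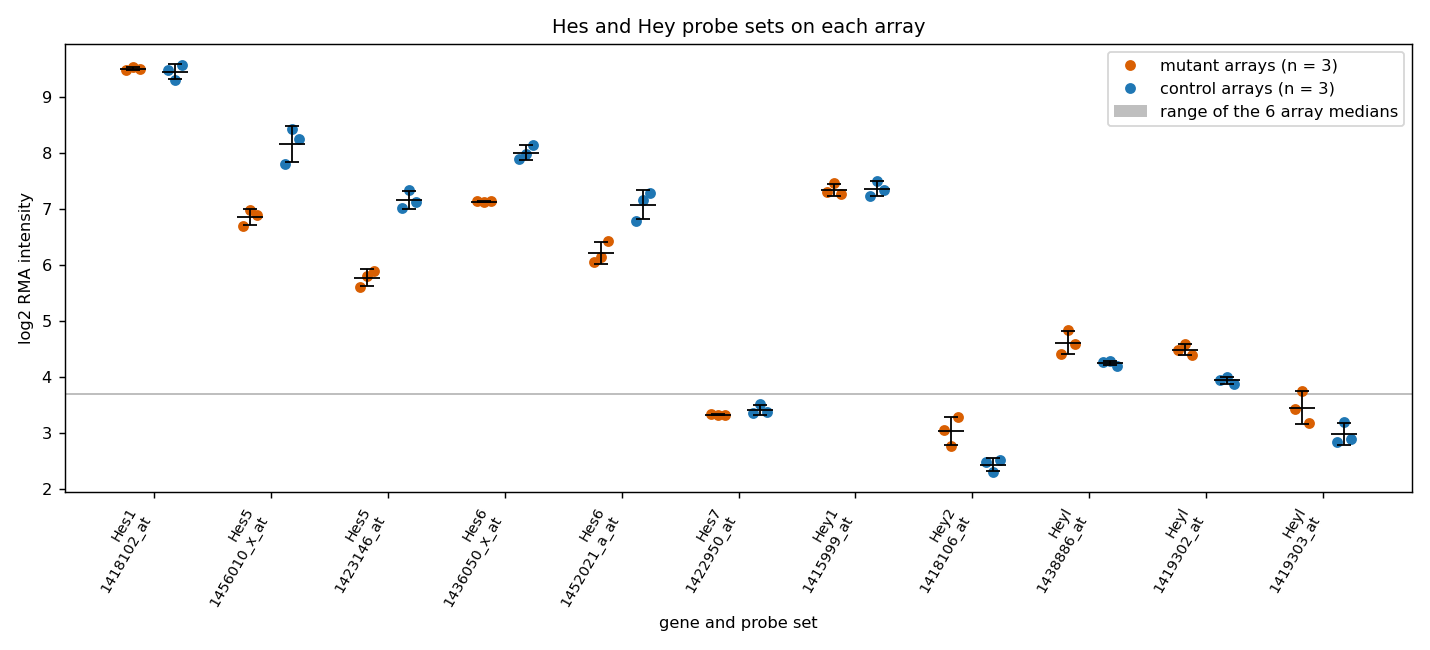
Log2 RMA intensity of the 11 Hes and Hey probe sets on each array (points), with the mean and SD of the 3 mutant arrays on the left and the 3 control arrays on the right of each pair. The grey band is the range of the array medians. The groups are separate for Hes5, Hes6, Hes7, Hey2 and 2 Heyl probe sets, while Hes1, Hey1 and the third Heyl probe set overlap.

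Pax6 was measured by 5 probe sets, and 1 of them fell, with log2 intensities of 4.79, 4.88 and 4.45 on the mutant arrays and 6.34, 6.44 and 6.14 on the control arrays. Its log2 fold change was -1.60 (limma adjusted p = 0.00329), and the log2 fold changes of the 4 others lay between -0.22 and 0.10 and were not called. The sources used here do not say which Pax6 probe sets match the exons that Cre removes. The array medians lay between 12.9 and 13.1 in linear intensity. The correlation between a mutant and a control array was between 0.991 and 0.993 over all probe sets. Between arrays of the same group it was higher, between 0.995 and 0.997. RNA was measured from pools of sorted cells, so fewer cells that express a gene and less RNA in each of these cells cannot be told apart in any of the values below.

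Hes5, the Notch-responsive repressor that is most restricted to neural progenitors, had the largest change among the members. Its brighter probe set, 1456010_x_at, had log2 intensities of 6.69, 6.97 and 6.89 on the mutant arrays and 7.80, 8.42 and 8.24 on the control arrays. All 3 mutant values were under all 3 control values, by more than the spread within either group. The log2 fold change was -1.30 (standard error, SE, 0.16, 95% interval -1.68 to -0.92, limma adjusted p = 0.00967), so that signal was 2.46-fold lower in mutant RPCs. The suffix _x_at marks a probe set with probes that can also match other transcripts. The second probe set, 1423146_at, does not carry this suffix and had log2 intensities of 5.61, 5.81 and 5.89 on the mutant arrays, against 7.01, 7.34 and 7.12 on the control arrays. It gave a log2 fold change of -1.38 (SE 0.11, 95% interval -1.64 to -1.12, limma adjusted p = 0.00315), with the groups again well apart. Ordered by log2 fold change, the probe sets held the 42nd and 34th lowest places of all 45037. Both were called lower without any 1 of the 6 arrays, as well as in every other setting tried.

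The region around the start of Hes5 is shown because Hes5 is a direct target of Rbpj, whose core recognition sequence is GTGGGAA. RefSeq sequences (assembly GRCm38.p6), from 250 bases before to 50 bases after an annotated start of transcription, were found for Hes5, Hes6, Hes7 and Hey2, with 2 starts for Hes6. Those of Hes1, Hey1 and Heyl were not used here. Hes5 (chr4:154960673-154960972, plus strand) and Hey2 (chr10:30842734-30843033, minus strand) are printed below 5′ to 3′ along the gene's own strand, with GTGGGAA or its reverse complement TTCCCAC in capitals.
Hes5: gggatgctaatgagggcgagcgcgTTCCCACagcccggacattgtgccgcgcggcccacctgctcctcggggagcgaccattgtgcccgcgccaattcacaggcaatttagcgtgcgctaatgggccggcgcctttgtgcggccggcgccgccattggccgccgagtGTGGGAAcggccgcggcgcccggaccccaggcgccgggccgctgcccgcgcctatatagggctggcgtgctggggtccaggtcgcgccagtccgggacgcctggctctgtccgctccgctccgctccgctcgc
Hey2: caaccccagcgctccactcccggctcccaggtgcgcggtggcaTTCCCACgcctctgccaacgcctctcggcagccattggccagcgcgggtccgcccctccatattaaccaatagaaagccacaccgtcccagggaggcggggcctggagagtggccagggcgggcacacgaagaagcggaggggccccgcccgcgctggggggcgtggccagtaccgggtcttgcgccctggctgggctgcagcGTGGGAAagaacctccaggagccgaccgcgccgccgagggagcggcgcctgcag
In Hes5 the first capital of the match on the opposite strand lay 226 bases before the start, and that of the match on the gene's strand lay 83 bases before it. In Hey2 the corresponding distances were 207 and 4 bases. GTGGGAA was searched for on both strands, and at least 1 match was found in 6.38% of all 32851 RefSeq promoter windows of the same length, and at least 2 matches in 0.256%. Hes5 and Hey2 thus each held 2 matches in opposite orientation, and a part of these matches in their signals was not tested. Hes7 held 1 match, on the opposite strand and starting 180 bases before its start, and neither Hes6 window held one. A match of letters does not show that Rbpj binds there.

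Hes6 was the second member to fall. It promotes neuronal differentiation and is found in cells that leave the progenitor state. Its brighter probe set, 1436050_x_at, had log2 intensities of 7.13, 7.11 and 7.14 on the mutant arrays and 7.88, 7.97 and 8.14 on the control arrays. The mutant arrays lay within a very narrow range, well below the lowest control array. The log2 fold change was -0.87 (SE 0.08, 95% interval -1.06 to -0.69, limma adjusted p = 0.00389), which is 1.83-fold lower in mutant RPCs. The other probe set, 1452021_a_at, had log2 intensities of 6.05, 6.13 and 6.42 on the mutant arrays and 6.78, 7.15 and 7.28 on the control arrays. The groups were separate here too, although each was more spread out than for the brighter probe set. Its log2 fold change of -0.87 (SE 0.15, limma adjusted p = 0.0255) was the same to the second decimal, but it was not called without moderation of the variance (adjusted p = 0.148). The 2 probe sets held the 168th and 169th lowest places of all by log2 fold change.

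Proneural bHLH factors bind E-boxes, CANNTG, and are known to switch on Hes6, so the upstream RefSeq window of Hes6 (chr1:91413989-91414288, minus strand) is shown with each CANNTG in capitals.
Hes6: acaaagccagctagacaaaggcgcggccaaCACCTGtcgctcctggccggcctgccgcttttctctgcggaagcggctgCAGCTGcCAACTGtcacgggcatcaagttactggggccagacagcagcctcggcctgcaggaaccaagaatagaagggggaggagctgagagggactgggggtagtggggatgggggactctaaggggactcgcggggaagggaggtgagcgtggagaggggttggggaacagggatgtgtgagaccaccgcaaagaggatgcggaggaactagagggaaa
It held 3 such E-boxes, whose first letters lay 220, 171 and 164 bases before the start. CANNTG reads the same on both strands. At least 1 was found in 72.3% of all 32851 windows and at least 3 in 17.6%, so the letters are common. The window of the other annotated start (chr1:91413173-91413472, minus strand) held 1, beginning 150 bases before that start. Hes factors themselves bind the N-box CACNAG and the sequences CACGTG, which is a form of CANNTG, and CACGCG. Searched on both strands, CACGTG was in none of the 5 member windows, against 7.15% of all windows. CACNAG was in the second Hes6 window, with 2 matches, and in that of Hes7, with 1 match, against 42.5% of all windows, and CACGCG was in that of Hes7 alone, against 9.27%.

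**Figure D2:**
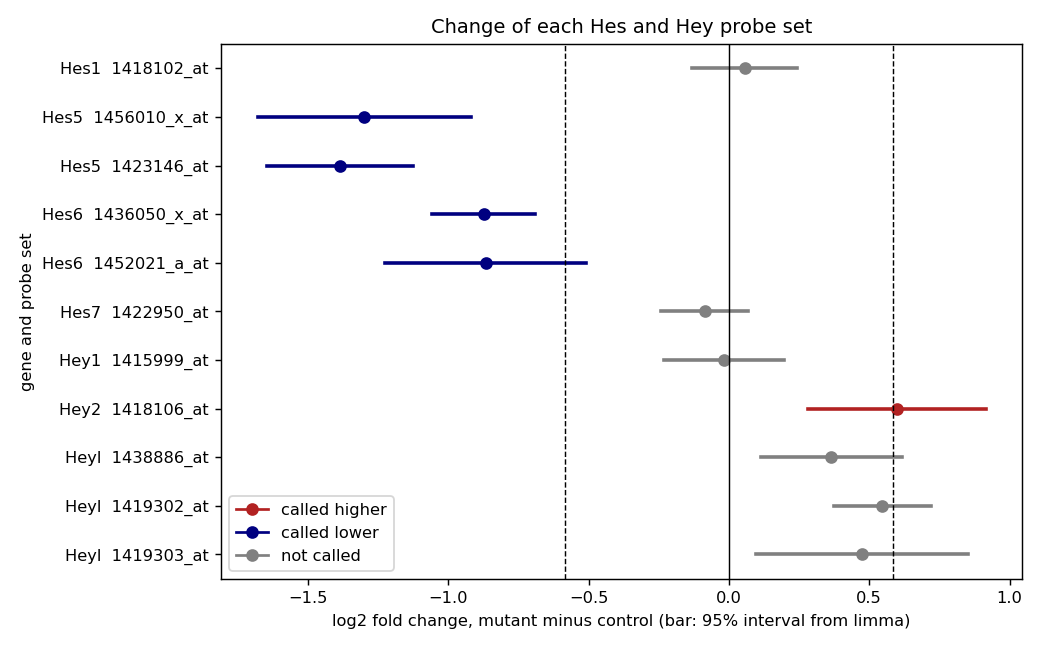
Log2 fold change (mutant minus control) of each Hes and Hey probe set (point) with its 95% interval from limma (bar). Dashed lines mark a 1.5-fold difference. Both Hes5 and both Hes6 probe sets lie to the left of the lower line, Hey2 lies just past the upper line, and the 3 Heyl probe sets lie between 0 and the upper line.

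Hes1, the broadly expressed Notch target that is essential for the maintenance of retinal progenitors, was not called. Its single probe set, 1418102_at, had log2 intensities of 9.48, 9.52 and 9.49 on the mutant arrays and 9.47, 9.29 and 9.55 on the control arrays. The mutant values lay inside the range of the control values. The log2 fold change was 0.06 (SE 0.08, limma adjusted p = 0.734), and its 95% interval of -0.13 to 0.24 does not reach a 1.5-fold change in either direction. The probe set was brighter than 97.4% of all probe sets, so low signal was not a limit here.

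Hey1, another Notch target that represses proneural genes, gave a similar picture. Its log2 intensities were 7.29, 7.45 and 7.26 on the mutant arrays and 7.23, 7.49 and 7.34 on the control arrays. The groups overlapped over almost their whole range. Its log2 fold change was -0.02 (SE 0.09, 95% interval -0.23 to 0.20, limma adjusted p = 0.940). As with Hes1, this interval leaves room for a change of less than 1.5-fold only.

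Hey2 was the only member called higher by its brightest probe set. It had log2 intensities of 3.06, 2.76 and 3.28 on the mutant arrays and 2.48, 2.30 and 2.52 on the control arrays. The groups did not overlap, but all 6 values lay below the median of their array. The log2 fold change was 0.60 (SE 0.13, 95% interval 0.28 to 0.91, limma adjusted p = 0.0521), or 1.51-fold, just past the threshold of 1.5. The call was lost when control replicate 1 was left out (0.62), and likewise without control replicate 2 (0.53), without mutant replicate 1 (0.59) and without mutant replicate 3 (0.48). It was also lost without moderation of the variance (adjusted p = 0.197), and when 16 was added to each intensity before the logarithm was taken (0.18). The sign stayed positive in each of these.

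Heyl, the third Hey gene and a Notch target in vessel walls, had 3 probe sets that all had positive differences and were not called. The brightest, 1438886_at, had log2 intensities of 4.41, 4.83 and 4.58 on the mutant arrays and 4.26, 4.28 and 4.20 on the control arrays. Mutant arrays were all above control arrays, with a log2 fold change of 0.36 (SE 0.11, limma adjusted p = 0.107). The second, 1419302_at, had log2 intensities of 4.47, 4.58 and 4.39 on the mutant arrays and 3.94, 4.0 and 3.87 on the control arrays. Its groups were clearly apart, and its log2 fold change of 0.55 (SE 0.07, 95% interval 0.37 to 0.72, limma adjusted p = 0.0115) missed the call through its size of 1.46-fold alone. Without mutant replicate 3 it was called, with a log2 fold change of 0.59. The third, 1419303_at, had log2 intensities of 3.43, 3.75 and 3.17 on the mutant arrays and 2.84, 3.19 and 2.90 on the control arrays. Here the groups overlapped and most values lay under the medians of their arrays. The mean difference was 0.47 on the log2 scale (limma adjusted p = 0.151).

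Hes7 had log2 intensities of 3.34, 3.32 and 3.32 on the mutant arrays and 3.36, 3.51 and 3.37 on the control arrays. All 6 values lay below the array median and the groups were separated by a very small gap. The log2 fold change was -0.09 (95% interval -0.24 to 0.07, limma adjusted p = 0.504), and no call was made.

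The fall of Hes5 can be set beside the other members on each array, by subtracting the log2 intensity of the other gene from that of Hes5 (brightest probe sets). Hes5 was chosen here for its large fall, so these differences mostly restate it and are given as a description with no test. Relative to Hes1, the mutant values were -2.79, -2.55 and -2.60 and the control values were -1.67, -0.88 and -1.32, a change of -1.36. Relative to Hey1 the change was -1.28, and relative to Heyl it was -1.66. Relative to Hes6, which fell as well, it was -0.43, with mutant values of -0.44, -0.14 and -0.25 and control values of -0.09, 0.44 and 0.10. The changes relative to Hes7 (-1.21) and Hey2 (-1.90) rest on probe sets below the array median on all 6 arrays, and their sizes are therefore uncertain. With 3 arrays in each group an exact two-sided permutation test cannot give p below 0.1.

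**Figure D3:**
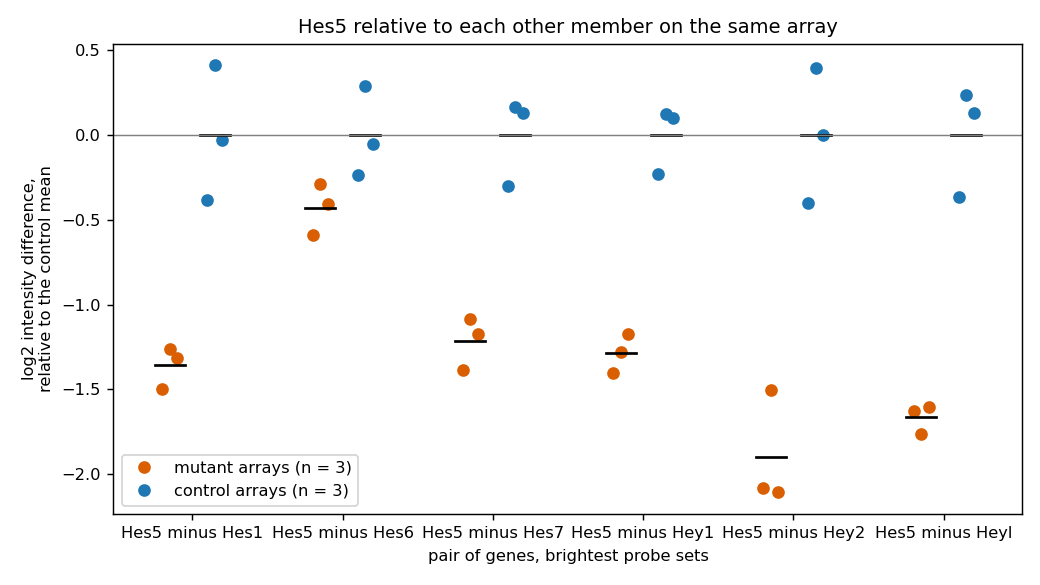
Log2 intensity of Hes5 minus that of each other member on the same array, set relative to the mean of the control arrays, for mutant arrays (left of each pair) and control arrays (right). Points are arrays and bars are group means. The mutant arrays lie below the control arrays in all 6 pairs, and the gap is smallest for Hes6.

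The genes whose profiles over the 6 arrays were closest to those of the called members were found by the Euclidean distance between log2 intensities centred on each gene's mean, among 18194 genes. Nearest to Hes5 were Atoh7 (distance 0.307, log2 fold change -1.21), a proneural gene of retinal ganglion cell precursors, Mid1 (0.313 and -1.15), a ubiquitin ligase gene, and Filip1 (0.369 and -1.26), which encodes a filamin-interacting protein. Nearest to Hes6 were Rnf113a1 (0.0829 and -0.85), Olfm1 (0.163 and -0.90), which encodes a secreted protein of neurons, and Galnt12 (0.168 and -0.77), a glycosyltransferase gene. Nearest to Hey2 were the casein gene Csn3 (0.191 and 0.61), Acot11 (0.192 and 0.52), a thioesterase gene, and Cxcl12 (0.223 and 0.54), a chemokine gene. The genes near Hes5 and Hes6 and Csn3 were called in the direction of their member, and Acot11 and Cxcl12 were not called. The distance includes the difference between mutant and control arrays, so a shared direction follows from how these genes were chosen.

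Among relatives of the members, 0 of 8 measured bHLH-Orange and Id genes were called by limma, and 3 had an unadjusted p under 0.05, as had 24.4% of all genes. Id1 and Id3, which encode inhibitors that pair with bHLH factors and keep them off DNA, were the nearest to a call. Id1 had log2 intensities of 9.27, 9.23 and 9.33 on the mutant arrays and 9.85, 9.54 and 9.71 on the control arrays (log2 fold change -0.43, limma adjusted p = 0.0435). Id3 had 10.65, 10.56 and 10.63 on the mutant arrays and 10.97, 10.99 and 11.10 on the control arrays (-0.41, limma adjusted p = 0.0190). For both genes the groups were apart and the fold was under 1.5.

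Upstream of the members, 1 of 7 Notch ligand genes was lower and none was higher. The lower one was Dll1, a ligand carried by newly committed neurons, with log2 intensities of 5.01, 5.70 and 5.17 on the mutant arrays and 6.35, 6.80 and 6.55 on the control arrays (log2 fold change -1.28, limma adjusted p = 0.0163). Its call was lost without moderation of the variance (adjusted p = 0.128). For Jag1, a ligand of the peripheral retina, the log2 fold change was 0.12 (adjusted p = 0.314), and for Dll3, which acts inside the cell on Notch, it was -0.17 (adjusted p = 0.154). The difference for the ligand gene Jag2 was 0.60 on the log2 scale (adjusted p = 0.107), and it was called higher when array medians were subtracted (0.61, adjusted p = 0.0990), with an intensity trend and robust prior (adjusted p = 0.0562), or with the dimmest 40% of probe sets left out (adjusted p = 0.0776).

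Of the 4 receptor genes 0 were called by limma, and 1 had an unadjusted p under 0.05, against 24.4% of all genes. Notch1 had log2 intensities of 8.72, 8.99 and 8.67 on the mutant arrays and 8.57, 8.85 and 8.89 on the control arrays, which overlapped (log2 fold change 0.02, limma adjusted p = 0.935). Of 20 genes that modify or process Notch and its ligands, Dtx1 alone was called. Dtx1 encodes a ubiquitin ligase that binds the intracellular part of Notch, and its transcription is itself raised by Notch in several cell types. It had log2 intensities of 5.87, 5.94 and 5.95 on the mutant arrays and 6.68, 6.77 and 6.73 on the control arrays. The groups were tight and far apart, with a log2 fold change of -0.81 (SE 0.06, limma adjusted p = 0.00275), while the median over its 2 probe sets gave -0.46 and was not called.

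In the nucleus, 0 of 10 genes of the Rbpj complex and its cofactors were called by limma. An unadjusted p under 0.05 was found for 4 of them, against 24.4% of all genes. Rbpj itself had log2 intensities of 8.04, 8.07 and 8.02 on the mutant arrays and 8.13, 8.18 and 8.34 on the control arrays, which were apart by little (log2 fold change -0.17, limma adjusted p = 0.232). Of 10 further Notch target genes outside the family, 0 were called by limma, and 3 had an unadjusted p under 0.05. Nrarp, a feedback inhibitor that is a sensitive readout of Notch activity in other tissues, had log2 intensities of 7.88, 8.08 and 7.85 on the mutant arrays and 7.79, 8.02 and 8.07 on the control arrays. These overlapped (log2 fold change -0.02, limma adjusted p = 0.936). Of the 10 targets 8 had negative differences. Bcl2, which encodes an inhibitor of cell death, had log2 intensities of 6.99, 7.15 and 7.09 on the mutant arrays and 7.48, 7.44 and 7.52 on the control arrays (log2 fold change -0.40, limma adjusted p = 0.0206). The cell cycle gene Ccnd1 had 9.80, 9.84 and 9.77 on the mutant arrays and 10.01, 10.16 and 10.14 on the control arrays (-0.30, limma adjusted p = 0.0486). For both the groups were apart and the fold was under 1.5. Fabp7 was called higher without control replicate 3 (0.92) and not with all arrays (0.58, adjusted p = 0.320). Of 11 Groucho/TLE and related corepressor genes, 0 were called by limma, and 3 had an unadjusted p under 0.05. Tle1 differed by -0.28 on the log2 scale (adjusted p = 0.0580) and Tle3 by -0.11 (adjusted p = 0.495).

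Downstream of the members, 3 of 11 genes of the proneural list were lower and none was higher. The list also holds Tcf3 (-0.15), Tcf4 (0.07) and Tcf12 (0.01), which encode general bHLH partners and are not proneural genes. Neurog2, which starts neurogenesis in many retinal progenitors, had log2 intensities of 4.89, 5.41 and 5.49 on the mutant arrays and 6.89, 7.05 and 7.16 on the control arrays (log2 fold change -1.77, limma adjusted p = 0.00408). For Neurod1, a differentiation factor of later precursors, the log2 fold change was -1.49 (adjusted p = 0.00350), and for Atoh7 it was -1.21 (adjusted p = 0.00361). The groups were apart for all 3, and all 3 were called without any 1 array. The median log2 fold change of the list was -0.14, since the other 8 genes were not called and 4 genes were below the array median on every array. Over the 7 pathway and target lists and the proneural list together, 5 of 81 genes were lower and 0 were higher, with a median of -0.02, beside the 0.918% and 2.28% of all genes given above.

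Genes of newborn neurons, the cells in which Dll1 and Hes6 are found, had a median log2 fold change of -0.81. Of 12 such genes 7 were lower, against 0.918% of all genes. They included the transcription factor genes Isl1 (-1.70) and Insm1 (-0.89), Tubb3 (-1.11), a tubulin gene of neurons, and Elavl3 (-0.81), which encodes an RNA-binding protein. The number called was 3 without mutant replicate 2 and 4 without mutant replicate 3, between 5 and 9 without each other array, and 2 without moderation of the variance. Tubb3 was not called without mutant replicate 1 (-1.06), without mutant replicate 2 (-1.04) or without moderation, and Isl1 was not called without moderation (adjusted p = 0.163). The summed linear intensity of the 12 genes was between 330.2 and 397 on the mutant arrays and between 601 and 804 on the control arrays. The part of these genes in the values of Hes6 and Hes5 was not tested. Of 11 retinal progenitor genes, 3 were lower, namely Fgf15 (-1.43), Nr2e1 (-1.06) and Sfrp2 (-0.98), and the median was -0.36. All 11 had negative differences, and 8 had an unadjusted limma p under 0.05, against 24.4% of all genes. The list includes Pax6 itself, by its brightest probe set, which was not called (-0.11).

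**Figure D4:**
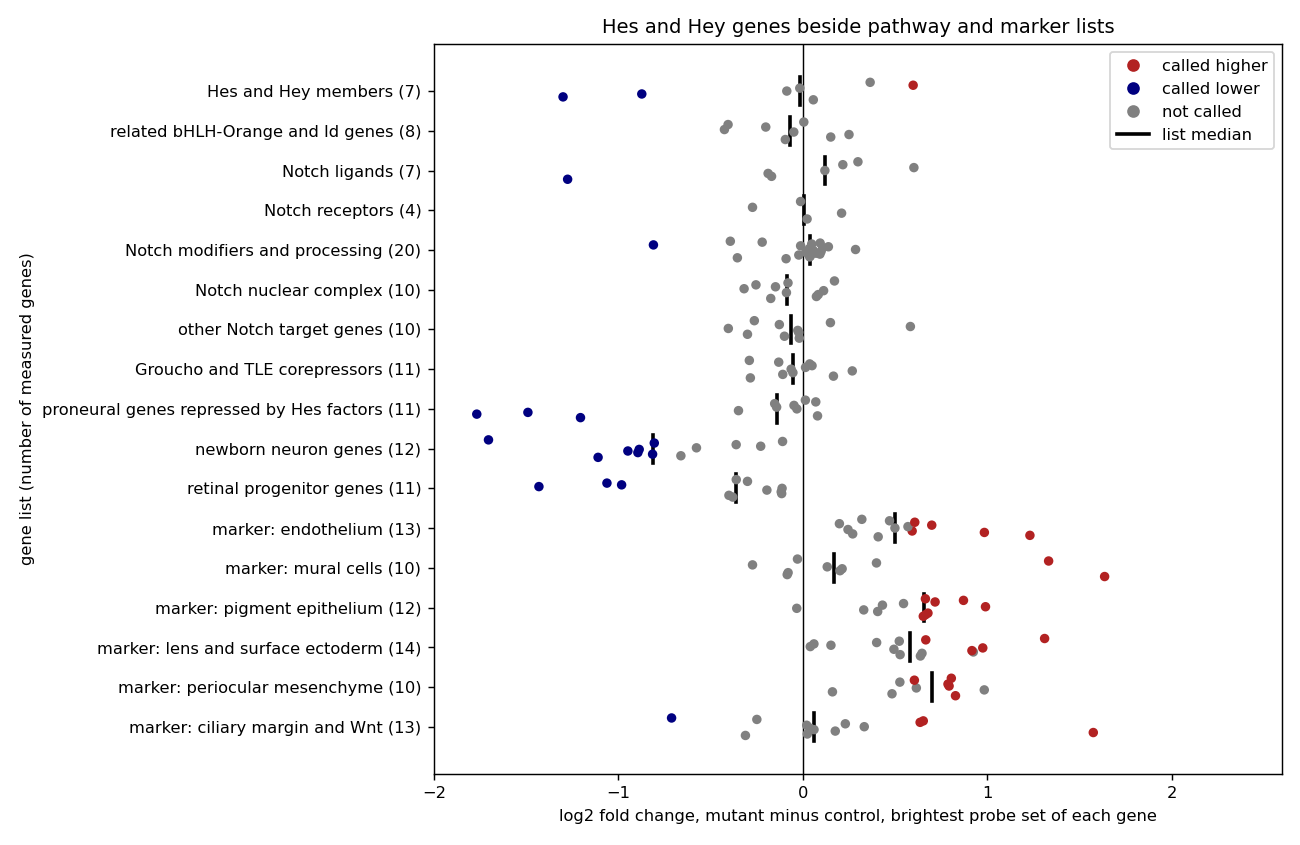
Log2 fold change (mutant minus control) of each measured gene by its brightest probe set, for the 7 members and for each list (points), with the median of each list (black bar). Blue and red points were called lower and higher. The lists of the Notch pathway are centred near 0, with 1 ligand gene and 1 modifier gene called lower and no gene called in the receptor, nuclear complex, target and corepressor lists. Proneural genes include 3 called lower, newborn neuron genes lie to the left of 0, and the pigment, lens, mesenchyme and endothelium lists lie to the right.

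Several markers of vessel cells, but not all of them, were higher in mutant RPCs. Hey2 and Heyl are also known from blood vessels. Of 13 endothelial markers, 5 were higher in mutant RPCs and none was lower, against 2.28% and 0.918% of all genes. Their median log2 fold change was 0.50. Their summed linear intensity was between 1280 and 1395 on the mutant arrays and between 774 and 1020 on the control arrays. No endothelial marker lay below the array median on all 6 arrays. The number called was 0 without mutant replicate 1 or mutant replicate 2, 1 without mutant replicate 3, 2 without control replicate 1, 3 without control replicate 2, and 0 without moderation of the variance. Of 10 mural cell markers, 2 were higher, the receptor gene Pdgfrb (1.64) and the channel subunit gene Abcc9 (1.33). Cspg4 (-0.08), Kcnj8 (0.40), Myh11 (0.13) and Rgs5 (-0.08) were not called and were below the array median on all arrays. Notch3 (-0.27, limma adjusted p = 0.130) and Des (-0.03) were above the array median on all arrays and were not called. For Notch3 the mutant arrays all lay below the control arrays. Of the 10 mural markers, 6 had positive and 4 had negative differences. Pdgfrb was not called without moderation of the variance (adjusted p = 0.142), which left 1 mural marker called. The summed intensity was between 1960 and 2166 on the mutant arrays and between 1778 and 1795 on the control arrays. Most of this sum came from Acta2 (log2 fold change 0.20) and Tagln (0.21), neither of which was called. The part of vessel cells in the values of Hey2 and Heyl was not tested.

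Some markers of other eye tissues were higher as well. Over all genes 2.28% were called higher. Of 12 pigment epithelium markers 7 were higher (median log2 fold change 0.66), and of 14 lens and surface ectoderm markers 4 were higher (0.58). Of 10 periocular mesenchyme markers 5 were higher (0.70), and none of the 3 lists had a gene called lower. The number was 3 for pigment epithelium without control replicate 2, 2 for lens without mutant replicate 2 or mutant replicate 3, and 3 for mesenchyme without mutant replicate 1. Without moderation of the variance it was 2 for pigment epithelium, 1 for lens and 2 for mesenchyme. Of 13 genes of the ciliary margin and Wnt signalling, 3 were higher, and 1, Zic2 (-0.71), was lower, with a median of 0.06. The higher genes were the growth factor gene Bmp4 (1.57), Ccnd2 (0.64) and Mitf (0.65). Mitf is also counted among the higher pigment epithelium markers. Zic2 was not called without moderation of the variance (adjusted p = 0.109) or with 16 added to the intensities (-0.52). The part of these cells in the values of the members was not tested.

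**Figure D5:**
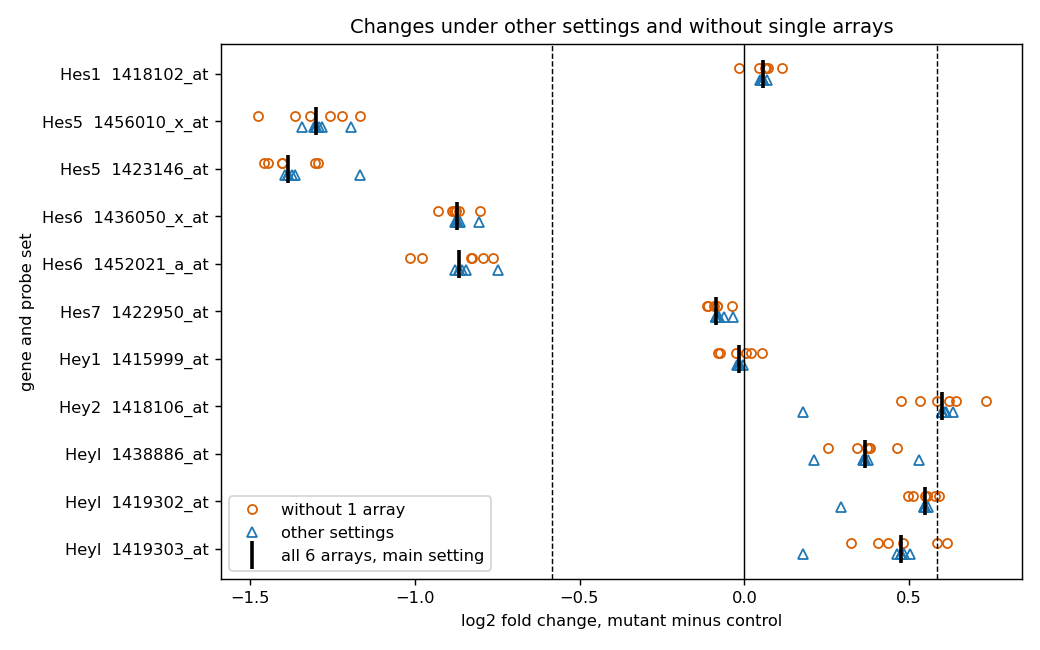
Log2 fold change (mutant minus control) of each Hes and Hey probe set with all arrays (black bar), without 1 array at a time (circles) and under the other settings (triangles). Dashed lines mark a 1.5-fold difference. Hes5 and Hes6 stay past the lower line throughout, Hey2 falls on either side of the upper line, and Hes1 and Hey1 lie close to 0 on either side of it.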

How the data were processed

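Total RNA of GFP-positive distal RPCs from 3 mutant and 3 control pools was hybridised to Affymetrix mouse expression arrays. The authors summarised and normalised the probes by RMA, through the RACE front-end of Bioconductor per the methods and with Affymetrix Expression Console named in the submitters' processing notes, and the deposited values are intensity values on a linear scale. Log2 was taken, 64 control probe sets were left out, and the groups were compared in limma 3.58.1 (R 4.3.3) over 45037 probe sets. The methods give the thresholds of the call (fold of 1.5, p of 0.05 and false discovery rate of 0.10) and name SAM for a further check, with no settings, so SAM was not run here. The limma script was tested on simulated data. Where a gene had several probe sets, the brightest on average across the 6 arrays stood for it. Of the probe sets, 34945 had 1 gene symbol, 932 had several and were not used for genes, and 9160 had no gene listed. The text names all members, the called genes of the lists in part, further pathway genes chosen by role, and the 3 genes nearest in profile to each called member. The members and lists were chosen with earlier results of these data known, so their direction is not independent evidence. Arrays have no read depth, and precision is limited by the 3 arrays in each group. Alternatives were leaving out each array, replicate block, no variance moderation, trend and robust prior, quantile normalization, median subtraction, a filter on dim probe sets, an added offset, array weights, other folds, and the median over probe sets.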

Additional observations from a re-analysis of the deposited data

How the results depend on the processing

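Hes5 and Hes6 kept their direction in every alternative tried, and their brighter probe sets kept their calls in all of them except at a fold of 2, where Hes6 was not called. At that fold 2 member probe sets and 1 member gene were lower, against 4 and 2 at a fold of 1.5, and 0 were higher. The count of 1 higher member probe set and of 1 higher member gene was 0 without moderation of the variance, with 16 added to the intensities, and with the dimmest 40% of probe sets left out, which removes Hey2 itself. Without a fold threshold 2 member probe sets were higher. Without 1 array at a time, 4 member probe sets and 2 member genes were lower throughout and between 0 and 1 of each were higher. For the pathway lists, 5 genes were lower and between 0 and 1 were higher without 1 array. With the trend and robust prior, with array medians subtracted and with dim probe sets left out, 1 pathway gene, Jag2, was higher. Without a fold threshold 14 were lower and 1, Dlk2 (0.30, limma adjusted p = 0.0878), was higher. Without 1 array at a time the log2 fold change of Hes1 was between -0.016 and 0.11 and that of Hey1 between -0.079 and 0.054, and neither was called. Hes1 was negative without control replicate 2, and Hey1 was positive without control replicate 2, without mutant replicate 1 and without mutant replicate 3. Replicate numbers did not pair the arrays: same-numbered arrays correlated in their deviations by -0.01, -0.0006 and -0.008. With the replicate block the lower member probe sets numbered 4 and the higher 1. Other causes of these differences were not tested. The signal limits Hes7, Hey2 and the dimmest Heyl probe set, which lay mostly below the array median.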
